A study of Caenorhabditis elegans with 2 samples.

Results

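The genes described here are cct-1 to cct-8 of Caenorhabditis elegans, which encode the 8 subunits of the cytosolic chaperonin, and the measurement is the binding of HMG-20 to their chromatin. They were found by name among 19973 nuclear protein-coding genes of the Ensembl annotation, and all 8 were matched. The set was chosen by earlier results of the same peak lists, in which the signal at cct-8 was high, so that signal and the count of bound members are given as descriptions and without a test. Chromatin immunoprecipitation sequencing was done on whole young adults of strain RW12240 at 64 hours, grown from bleached and starved L1 larvae. Their genotype was st12240[hmg-20::TY1::EGFP::3xFLAG] I, in which CRISPR had inserted the tag at the hmg-20 gene itself, and an antibody against GFP was used. There was 1 group with 2 biological replicates, both with the tag. Whole worms mix the chromatin of all tissues. The control sample that the labels mention was used to make the deposited lists, and no values of its own are given below.

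The chaperonin containing TCP-1, called CCT or TRiC, is a cylinder of stacked rings in the cytosol, and each ring is built from one copy of every CCT subunit. It takes up unfolded proteins and uses ATP to close and release them, and actins and tubulins are its best known clients. Prefoldin, a smaller chaperone, hands such clients to it. HMG-20 is a protein of the HMG-box type, a class that binds DNA.

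From 1000 bp upstream to the 3' end, HMG-20 was in the thresholded list at 4 of the 8 genes, beside 4.25% of all protein-coding genes. The levels at the 4 genes were very different. The deposited conservative list had 1 region each at cct-8, cct-1, cct-7 and cct-5. All its regions have an irreproducible discovery rate (IDR) of at most 0.01 between the replicates, but it does not hold every ranked region with such a rate: 1086 ranked regions had one, and the list has 999. The pooled signal is the authors' value for a region, on a scale that the files do not state. It was 273.2 at cct-8, 97.3 at cct-1, 63.9 at cct-7 and 63.4 at cct-5. The regions at cct-8, cct-1 and cct-7 lay upstream of the gene, and the one at cct-5 lay inside an intron. The genes cct-2, cct-3, cct-4 and cct-6 had no region in that list.

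The sequences of those 4 regions are shown because they carry every thresholded region found at the members. They were read from the RefSeq copy of WBcel235, the assembly also called ce11, and are written on the strand of the cct gene, with the 21 bases centred on the summit in capitals. The regions are chrIV:1094295-1094439 on the minus strand, chrII:8185080-8185335 on the plus strand, chrV:1871843-1872098 on the plus strand and chrIII:4503385-4503640 on the minus strand.
cct-8: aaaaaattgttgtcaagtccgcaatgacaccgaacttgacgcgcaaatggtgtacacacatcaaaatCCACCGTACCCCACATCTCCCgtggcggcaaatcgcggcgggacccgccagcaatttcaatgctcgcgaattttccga
cct-1: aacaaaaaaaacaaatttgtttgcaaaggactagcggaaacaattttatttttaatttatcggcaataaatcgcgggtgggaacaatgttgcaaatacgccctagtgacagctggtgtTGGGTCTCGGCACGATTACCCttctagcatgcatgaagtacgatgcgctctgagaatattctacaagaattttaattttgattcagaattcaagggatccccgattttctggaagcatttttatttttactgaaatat
cct-7: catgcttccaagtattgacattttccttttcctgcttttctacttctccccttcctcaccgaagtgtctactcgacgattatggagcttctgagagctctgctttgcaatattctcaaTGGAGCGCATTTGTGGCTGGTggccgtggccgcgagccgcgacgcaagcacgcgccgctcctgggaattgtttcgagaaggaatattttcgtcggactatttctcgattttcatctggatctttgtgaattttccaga
cct-5: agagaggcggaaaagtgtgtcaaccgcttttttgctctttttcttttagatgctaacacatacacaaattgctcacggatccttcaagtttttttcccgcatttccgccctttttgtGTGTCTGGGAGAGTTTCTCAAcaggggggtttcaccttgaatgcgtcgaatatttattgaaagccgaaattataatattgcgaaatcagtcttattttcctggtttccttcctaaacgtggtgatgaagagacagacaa

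The summit stretches differed in composition. In 100 bases around the summit, G and C made up 60% at cct-7, 56.0% at cct-8, 49.0% at cct-1 and 43.0% at cct-5, against a median of 50% over the 979 nuclear conservative regions (quartiles 44.0 and 54.0) and 35.4% in the nuclear genome. The cct-5 summit was below the lower quartile of the list, and the cct-7 and cct-8 summits were above the upper one. The 43 regions at the members that did not reach the threshold had a median of 41%.

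The cct-8 gene, whose product is the theta subunit, had the highest signal of the 8 (WBGene00021934; chromosome IV, 1087108 to 1093920, minus strand). In the replicates' own lists this region had a signal of 128.5 in replicate 1 and 145.0 in replicate 2, or 137 ± 11.7 (SD, n = 2). It was the only region at a cct gene that stood in the thresholded lists of both replicates, with the highest possible score of 1000 in each. Its pooled signal ranked 15 among the 979 nuclear conservative regions, and its width of 145 bp was smaller than the 256 bp of the other 3. The summit at position 1094362 lay 442 bp upstream of cct-8.

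At cct-1, which encodes the alpha subunit (WBGene00000377; chromosome II, 8185443 to 8187601, plus strand), the replicates were far apart. The signal was 67.7 in replicate 1 and 29.6 in replicate 2, or 48.7 ± 26.9 (SD, n = 2), a ratio of 2.28 that was the highest among the members' regions. The region was in the thresholded list of replicate 1, with a score of 1000, and not in that of replicate 2, where its score was 614. Its summit at 8185208 lay 235 bp upstream of the gene, and its pooled signal ranked 258 of 979.

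At cct-7, for the eta subunit (WBGene00020391; chromosome V, 1872246 to 1875505, plus strand), the replicates were close together. The signal was 28.9 in replicate 1 and 31.1 in replicate 2, or 30 ± 1.55 (SD, n = 2). The summit at 1871971 lay 275 bp upstream, and the pooled signal ranked 744 of 979. It passed the threshold of neither replicate alone, with scores of 313 in replicate 1 and 393 in replicate 2.

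At cct-5, for the epsilon subunit (WBGene00000380; chromosome III, 4499188 to 4508114, minus strand), the thresholded region lay 4601 bp downstream of the 5' end, in intron 2 of 7, which spans 4501510 to 4507643 and is 6134 bp long. The signal was 35.6 in replicate 1 and 26.4 in replicate 2, or 31.0 ± 6.53 (SD, n = 2). This region too passed the threshold of neither replicate alone, with scores of 342 in replicate 1 and 58 in replicate 2, and it was also absent from the other thresholded list of the whole series, which kept the regions at cct-8, cct-1 and cct-7. No other annotated gene had a 5' end within 1000 bp of this summit.

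The counts read as follows beside all protein-coding genes. With a promoter window from 1000 bp upstream to 200 bp downstream of a transcript's 5' end, 3 of 8 members held a conservative summit, where 3.13% of the 19973 genes did. From 1000 bp upstream to the 3' end of the gene, the count was 4 of 8, where 4.25% of genes did. The members' windows had a median of 3709.5 bp and ranged from 3045 to 11000 bp, and the median over all genes was 3027 bp. In the list of replicate 1 alone, 2 members (cct-1 and cct-8) held a summit in the longer window, beside 2.29% of all genes. In the list of replicate 2 alone, only cct-8 did, beside 2.06%. The promoter count was 1 with the list of replicate 2 and 2 with that of replicate 1. The share of all genes was not computed for these promoter counts. Nothing was tested, since the members were chosen with these values known.

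**Figure D1:**
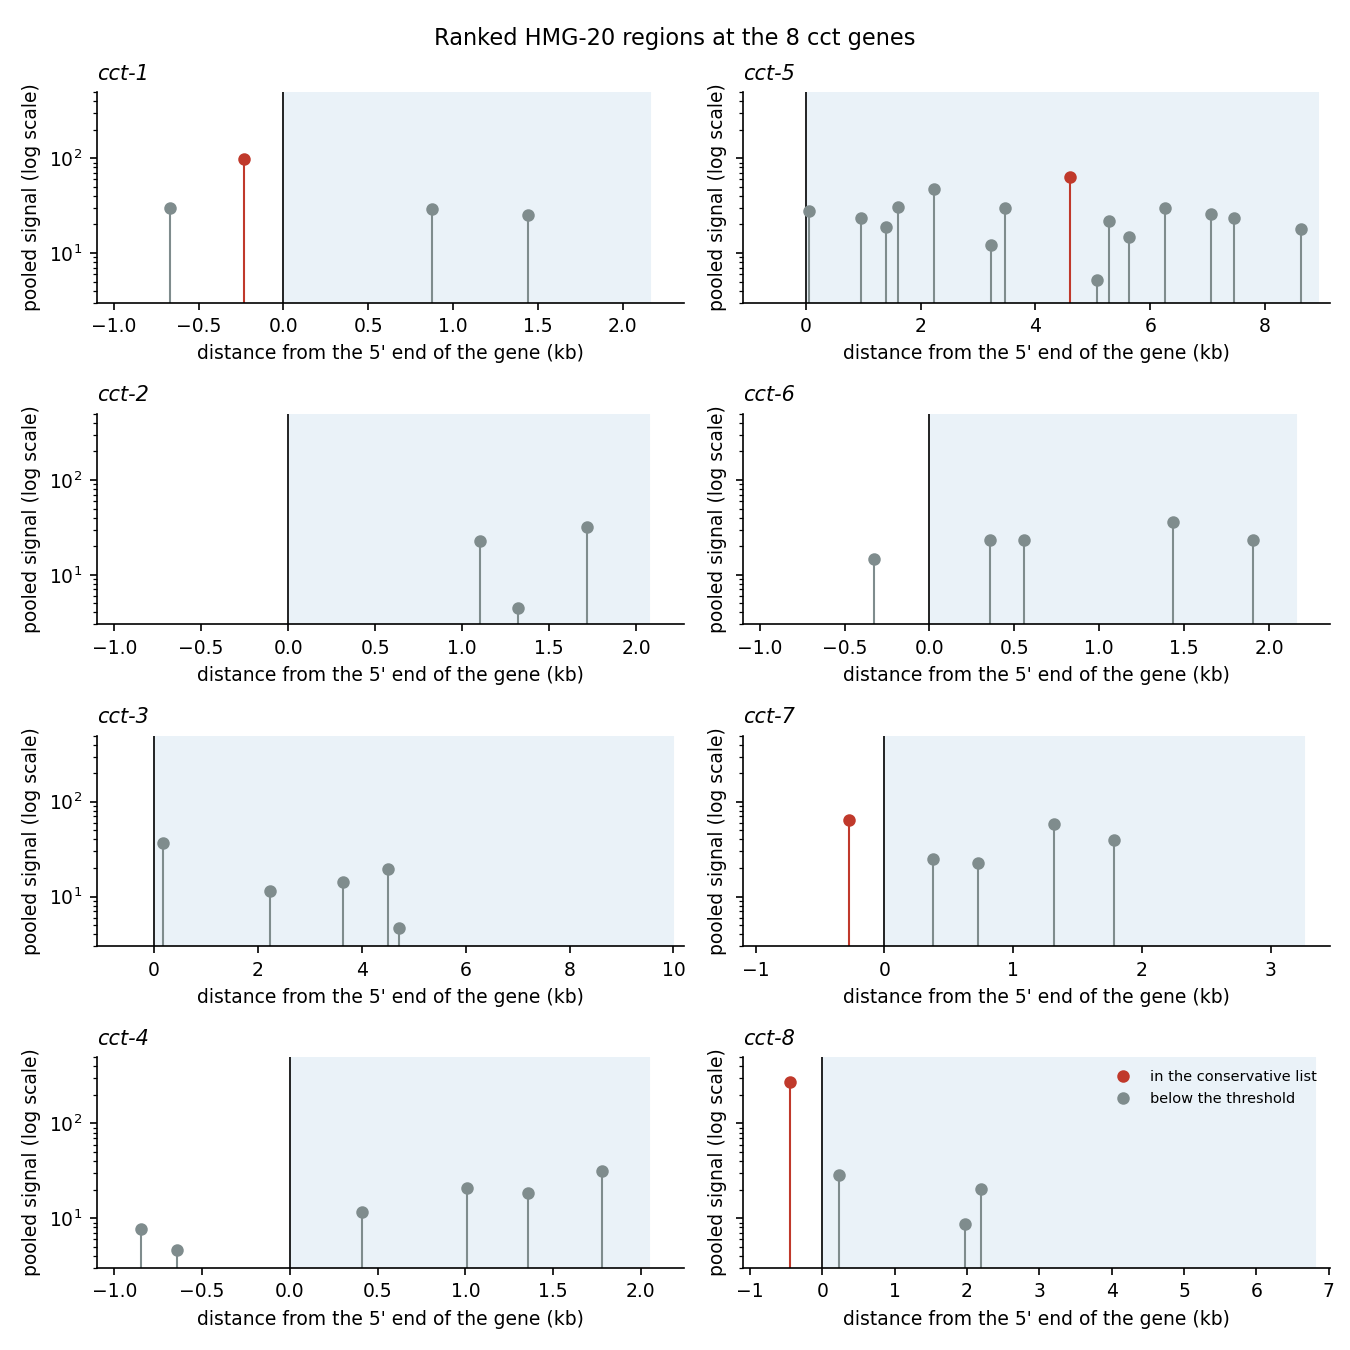
Pooled signal (log scale) of every ranked region from 1000 bp upstream of each cct gene to its 3' end, by the distance of its summit from the outermost 5' end of the gene (kb). Red points are in the conservative list, grey points are below the threshold, and the shaded band is the gene. The 4 red points stand at 273.2, 97.3, 63.9 and 63.4, those of cct-8, cct-1 and cct-7 upstream of the gene and that of cct-5 inside it.

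Each of the 3 promoter summits was shared with a protein-coding gene on the other strand, and each lay nearer to that gene than to the cct gene. The cct-8 summit was 179 bp upstream of Y55F3AR.2, annotated by RefSeq as a thioredoxin domain protein, against 442 bp for cct-8. The cct-1 summit was 185 bp upstream of mig-5, which encodes a Dishevelled homologue of Wnt signalling, against 235 bp for cct-1. The cct-7 summit was 164 bp upstream of T10B5.4, annotated as an aralkylamine N-acetyltransferase, against 275 bp for cct-7. That summit also lay 9 bp upstream of the short ncRNA gene T10B5.13. The ncRNA gene Y55F3AR.4 had its 5' end 275 bp from the cct-8 summit, which lay beyond that gene's 3' end. When a summit was given only to the protein-coding gene with the nearest 5' end, 0 of 8 members held one, beside 2.36% of all genes. Peak positions alone do not assign a shared summit to one gene of a pair.

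The head-to-head arrangement was found at all members. The nearest upstream protein-coding gene was on the opposite strand for 8 of 8 members, against 46.2% of all protein-coding genes that have an upstream neighbour. The spacers between the 5' ends were 331 bp at cct-6 (neighbour alh-9), 420 bp at cct-1, 439 bp at cct-7, 459 bp at cct-4 (neighbour nst-1), 621 bp at cct-8, 741 bp at cct-5 (neighbour F25F2.1), 1070 bp at cct-3 (neighbour F54A3.6) and 1190 bp at cct-2 (neighbour B0457.2). A spacer of at most 1000 bp was found at 6 of the 8 members and at 21.3% of all genes. Among all genes with such a spacer, 5.72% held a conservative promoter summit, against 2.43% of the others. Of the 6 members with such a spacer, cct-1, cct-7 and cct-8 held one and cct-4, cct-5 and cct-6 did not.

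**Figure D2:**
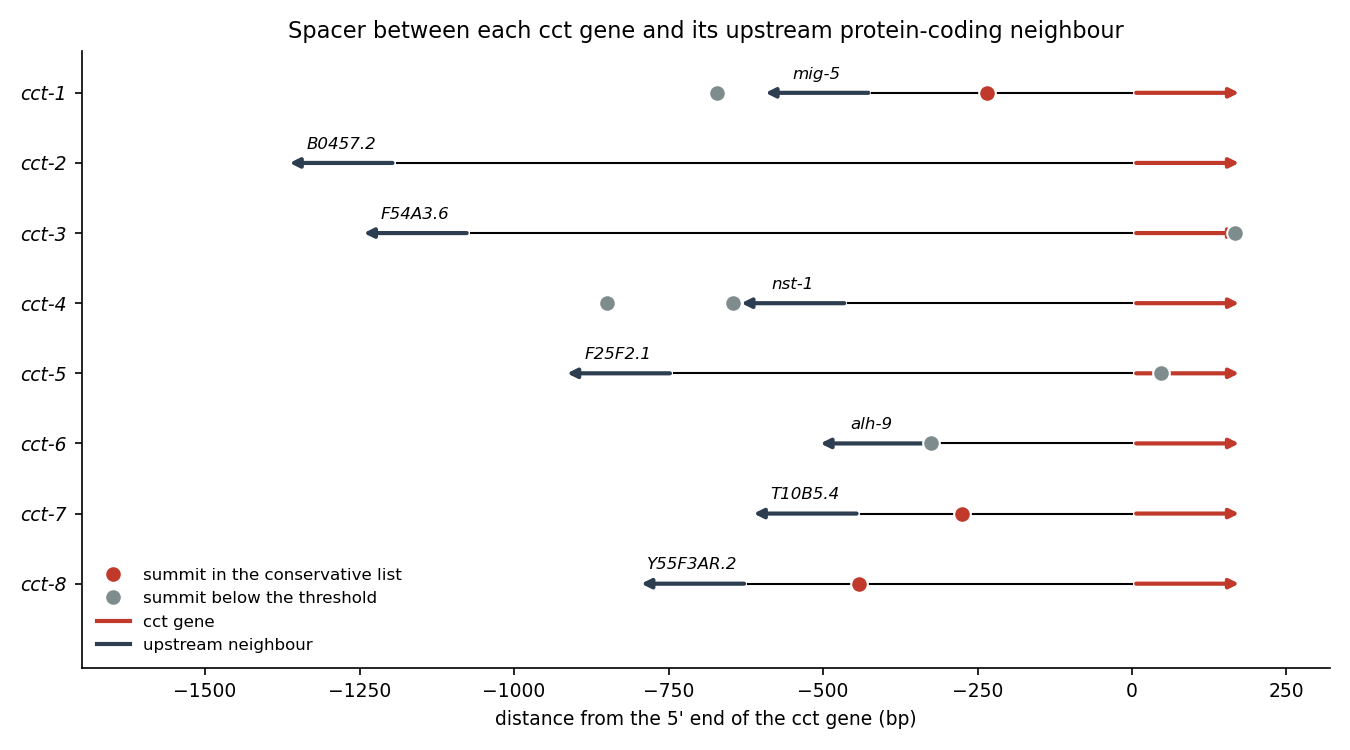
Spacer between each cct gene and its upstream protein-coding neighbour, in bp from the outermost 5' end of the cct gene. Arrows give the direction of each gene, red points are summits in the conservative list and grey points are ranked summits below the threshold. All 8 neighbours point away from the cct gene, and the 3 red points lie in the spacers of cct-1, cct-7 and cct-8.

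Below the threshold, weak regions were listed at all 8 genes. The ranked list held 47 regions from 1000 bp upstream to the 3' ends, and 43 of them did not reach the threshold. Their pooled signal ranged from 4.49 to 57.9 with a median of 23.2, near the median of 22.7 over the 59096 ranked nuclear regions. The lowest score of the conservative list was 830. The scores just above it at the members were 900 at cct-7 and 915 at cct-5, and the next below was 589, at a second cct-7 region. That region lay in a coding exon 1314 bp downstream of the 5' end, with a pooled signal of 57.9 and replicate signals of 22.2 and 28.7. The lowest score that occurs at the members, 27, was held by 15 regions.

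The 47 regions are not 47 separate observations. Of these, 10 shared both replicate signals with a neighbour in the same gene, so that 42 different pairs of replicate signals remained. The median ratio of the higher to the lower replicate signal was 1.41 over the 47 regions and 1.37 over all ranked nuclear regions. It was over 2 at 3 of the members' regions (6.38%), against 13.3% of all ranked nuclear regions.

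By position, 7 of the 47 summits were upstream of a member, 22 in a coding exon, 17 in an intron and 1 in an untranslated exon. The number of regions differed between genes. The gene cct-5 had 15 regions, of which 11 lay in its intron 2, while cct-2 had 3, cct-1 and cct-8 had 4 each, cct-3, cct-6 and cct-7 had 5 each and cct-4 had 6. Per kb of window this was 1.22 regions at the median member, from 0.455 at cct-3 to 1.97 at cct-4, against 0.601 at the median protein-coding gene. The genes cct-3, with the longest window at 11000 bp, and cct-8, with 0.512 regions per kb, were below the median of all genes, and the other 6 members were above it. The second strongest cct-5 region, with a pooled signal of 47.2 and a score of 243, lay in the same intron, 2225 bp from the 5' end.

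The promoter windows of the other 5 genes held no conservative summit. For cct-3, which encodes the gamma subunit, the strongest promoter region lay in a coding exon 166 bp downstream of the 5' end, with a pooled signal of 36.7 and replicate signals of 15.7 and 22.6. For cct-5 it lay 47 bp downstream, with a pooled signal of 27.9 and replicate signals of 13.1 and 20.1. For cct-6, the zeta subunit gene, it had a pooled signal of 14.6 and replicate signals of 7.94 and 12.2, and lay 325 bp upstream, 6 bp from the 5' end of alh-9. For cct-4, the delta subunit gene, the strongest region in the promoter window had a pooled signal of 7.67 and replicate signals of 10.6 and 10.7, and lay 850 bp upstream, inside the neighbour nst-1. The joint list gives the same pair of replicate signals for a weaker cct-4 region 645 bp upstream. Neither replicate's own ranked list had a region in the promoter window of cct-4 or cct-6. For cct-2, the beta subunit gene, no region of the joint ranked list had its summit in the promoter window. The ranked list of replicate 1 alone held one there with a signal of 10.5. The strongest cct-2 region, at 31.7, lay 1716 bp downstream in a coding exon. Its summit was also 384 bp upstream of the next gene, mrpl-50. A region of any rank was found in the promoter window of 7 of 8 members and of 54.6% of all protein-coding genes.

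Ordered by the mean replicate signal of the strongest promoter region, the members ran cct-8, cct-1, cct-7, cct-3, cct-5, cct-4 and cct-6. The 2 replicate values of cct-8 lay above both values of cct-1. The ranges of cct-1 and cct-7 overlapped, as did those of cct-3 and cct-5 and those of cct-4 and cct-6, so these neighbours were not told apart by the replicates. By pooled signal cct-4, at 7.67, was below cct-6, at 14.6. The replicate values of these genes come from the joint list only. The values of cct-7 lay above those of cct-3, and the values of cct-5 above those of cct-4.

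**Figure D3:**
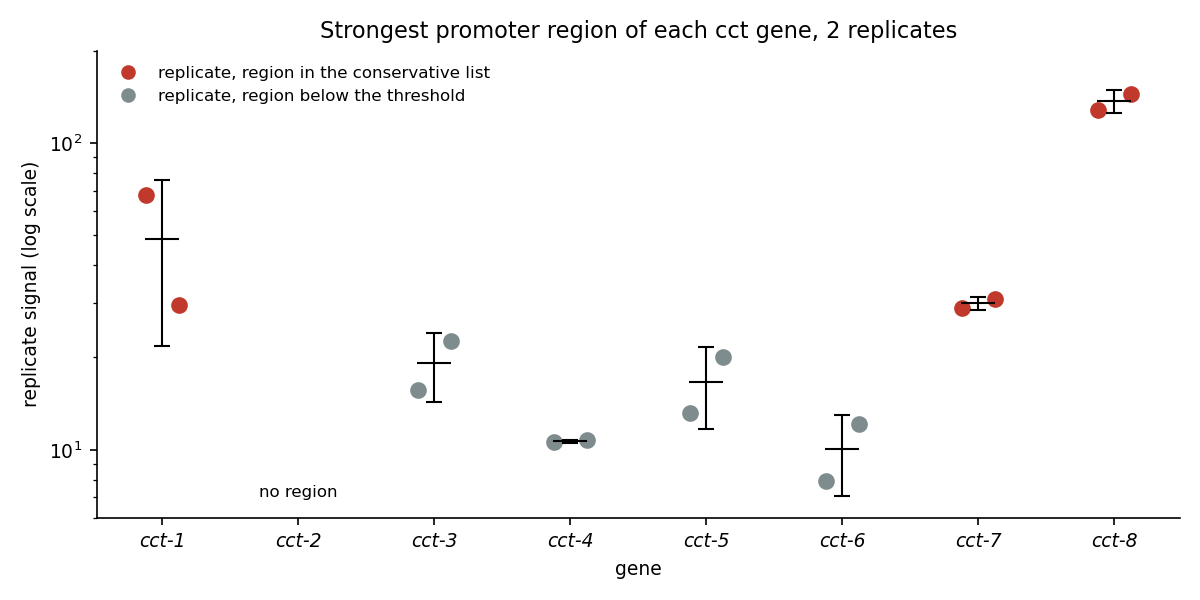
Replicate signal (log scale) of the strongest ranked region in the promoter window of each cct gene. Points are the 2 replicates, and the bar and whiskers are their mean ± SD. Both cct-8 points lie above 100, the cct-1 points are 67.7 and 29.6, and cct-2 has no region. The values of cct-4 and cct-6 are from the joint list, and neither replicate's own list had a region in those windows.

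Set among the 10906 protein-coding genes with a promoter region, the members were spread over nearly the whole range. The strongest promoter region of cct-8 ranked 8, at percentile 99.9, and those of cct-1 and cct-7 were at percentiles 98.1 and 95.0. The genes cct-3 and cct-5 were at percentiles 77.0 and 53.3, and cct-6 and cct-4 at 7.09 and 0.944. The middle of this order moved with the replicate list used. By the strongest promoter region in each replicate's own ranked list, cct-3 was at percentile 45.1 without replicate 2 and 83.2 without replicate 1, and cct-5 at 27.3 without replicate 2 and 88.2 without replicate 1. The last value rests on a replicate 2 region with a signal of 25.2. The joint region at cct-5 has replicate signals of 13.1 and 20.1, so the region compared also changed. The set of members with a promoter region differed between the lists as well. The median of the 7 members was a pooled signal of 36.7, against 27.0 over all 10906 genes. The 3 genes with the pair of replicate signals nearest to that of cct-8 on the log2 scale were Y55F3AR.2, which has the same region, nspc-17 on chromosome X, with 146 and 145, and the ribosomal protein gene rpl-15, with 161 and 154. This likeness rests on 2 replicates, and K11H12.8, which shares the rpl-15 region, was equally near.

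**Figure D4:**
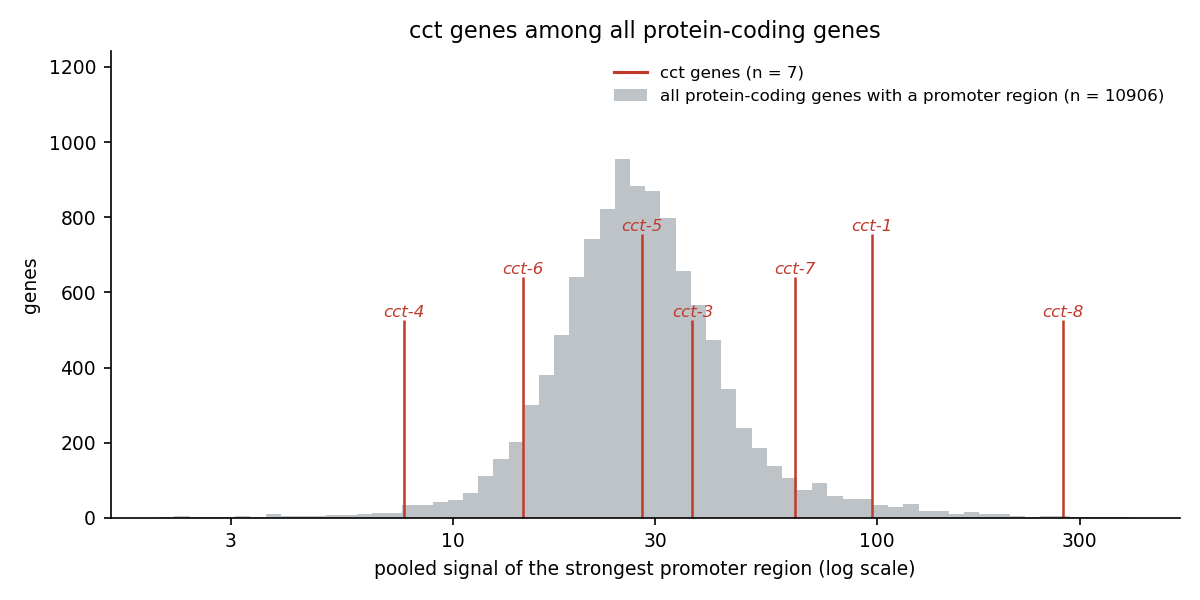
Pooled signal of the strongest ranked region in the promoter window (log scale) for the 7 cct genes that have one (red lines) and for all 10906 protein-coding genes that have one (grey, number of genes). The line heights only separate the labels. The lines run from 7.67 at cct-4 to 273.2 at cct-8.

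The promoter sequences were searched for short motifs, in the 250 bases upstream of the 5' end of each protein-coding gene and in 256 bases around each nuclear conservative summit. The paired units of the heat shock element, the site of the heat shock factor, were GAANNTTC and TTCNNGAA, and both read the same on either strand. GAANNTTC was in the promoters of 5 of 8 members (cct-1, cct-3, cct-5, cct-7 and cct-8) and in 15.7% of all 19973 promoters. TTCNNGAA was in those of cct-1, cct-4, cct-5, cct-6 and cct-7 and in 15.03% of all promoters. At least one of the 2 was in 7 of 8 members, all but cct-2, and in 27.1% of all promoters. The median share of G and C was 29.4% in the member promoters and 33.2% over all promoters. Around the summits, at least one was present at cct-1, cct-7 and cct-8 and not at cct-5, and in 22.4% of the 979 conservative windows. At cct-1 and cct-7 these are the same sites as in the promoters and not further ones. At cct-8 the promoter match, GAAGTTTC, is a different site from the match near the summit.

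In the printed sequences these matches stand outside the capitals. GAATATTC is at bases 172 to 179 and TTCTGGAA at 225 to 232 of the cct-1 region, 47 and 100 bp from the summit. TTCGAGAA is at bases 190 to 197 and GAATTTTC at 245 to 252 of the cct-7 region, and GAATTTTC is at 135 to 142 of the cct-8 region. Of the other motifs, searched on both strands, the E-box CACGTG was in 0 of 8 member promoters, against 4.94% of all promoters. The GATA-type motif TGATAA was in 0 of 8, against 26.8%. The GC-rich motif GGGCGG was in 0 of 8, against 6.94%. TATAAA was in 2 of 8, against 35.2%, and on the gene's strand in 0 of 8, against 22.4%. TTTTCAG, which ends like a splice acceptor, was on the gene's strand in 3 of 8 (cct-3, cct-5 and cct-6), against 18.02%. It began 7 bases upstream of the annotated 5' end at cct-5 and cct-6, directly next to that end, and 206 bases upstream at cct-3. All distances here are from annotated 5' ends, and transcription starts were not measured. In the conservative regions of the members, GGGCGG was found once, on the opposite strand of the cct-5 region, 20 bp from the summit. A match is a run of letters and does not show a bound factor.

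Partners and clients of the chaperonin were looked up in lists of named genes, and the counts below read beside the same 3.13% of genes with a conservative promoter summit. Of the 6 prefoldin subunit genes, which supply the co-chaperone that delivers clients, 1 held one. This was pfd-1, with a pooled signal of 74.0 and replicate signals of 27.5 and 44.7. Among the clients, 2 of 16 tubulin genes held one: the alpha-tubulin gene tba-2, with a pooled signal of 108.5 and replicate signals of 52.7 and 52.9, and the beta-tubulin gene tbb-1, with a pooled signal of 81.4 and replicate signals of 32.1 and 46.4. None of the 5 actin genes did, the strongest being act-2 with a pooled signal of 56.3 and replicate signals of 40.5 and 17.0.

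Other chaperone systems gave these counts. Of 13 genes for cytosolic HSP70, HSP90 and their partners, 6 held a conservative promoter summit, and hsp-1, which encodes a constitutive HSP70, held one in the gene window only. The strongest of the 6 was hsp-90, at a pooled signal of 175.4. Among the others, F44E5.4 and F44E5.5 shared one region at a pooled signal of 146.0, bag-1, a nucleotide exchange factor of HSP70, was at 100.2, hsp-110 at 92.2 and sti-1, which bridges HSP70 and HSP90, at 55.5. The mitochondrial chaperonin list gave 2 of 2 matched genes, hsp-60 and Y22D7AL.10, which share a single summit at a pooled signal of 173.5 and so are 1 observation. Of 4 matched genes of the heat shock factor list, 0 held a summit, and the strongest region was that of hsb-1 at 39.5. The listed names hsp-10 and hsf-2 were not matched. The median pooled signal of the strongest promoter region was 36.7 for the cct genes, against 44.4 for prefoldin, 36.5 for tubulins, 45.6 for actins, 36.4 for the heat shock factor list, 60.8 for the HSP70 and HSP90 genes and 173.5 for the mitochondrial chaperonin list, each over the genes with such a region. Such genes numbered 7 for cct, 5 for prefoldin, 9 for tubulins and 4 for actins. There were 2 for the heat shock factor list, 12 for HSP70 and HSP90, and 2 sharing 1 region for the mitochondrial list. These lists were not tested against one another.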

How the data were processed

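HMG-20 binding was measured by chromatin immunoprecipitation sequencing in 2 biological replicates of 1 group. The authors deposited peak lists on ce11, per the deposited description: ranked and IDR-thresholded lists for each replicate and for both together, made from filtered alignments of the replicates and a control. Which aligner and peak caller made them is not given in the sources used here. The deposited signal has no stated scale. The deposited score is a scaled IDR of at most 1000, and the deposited −log10 value is that of the global IDR. The score matched the global IDR within 1 at all 59116 ranked regions. Of these, 1086 had a score of at least 830, and 999 regions were in the conservative list. Pooled values carry no error. Depth is unknown, as the lists hold no read totals, and no counting intervals are given.

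Summits were assigned to nuclear protein-coding genes of Ensembl release 115 (WBcel235), by windows from 1000 bp upstream to 200 bp downstream of any 5' end and from 1000 bp upstream to the 3' end. The 2 replicate columns of the joint ranked list carry no names. At the 4 conservative regions of the members they equal the values in the replicates' own lists, which are the named values printed. For other regions the pair is given without names. The assignment was tested on simulated data, where 200 of 200 planted genes were recovered over the 19973 genes. Python 3.11.15, NumPy 2.4.6, pandas 2.3.3 and matplotlib 3.10.9 were used. There were 0 columns of other series.

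The members and lists were chosen with earlier results of these data known, so no test was run. Named genes were the 8 members, every gene with a 5' end within 1000 bp of a member's conservative summit or with its body over it, every listed pathway gene with a conservative promoter summit (otherwise the strongest of its list), and the 3 genes with replicate signals nearest to those of the strongest member. Outside this rule, and with their values seen, the upstream neighbours of the other members (alh-9, nst-1, F25F2.1, F54A3.6 and B0457.2), mrpl-50, hsp-1 and K11H12.8 are named. The alternatives were each replicate's list alone, the other list of the series, other IDR limits, other window lengths, the outermost 5' end, the nearest 5' end and region overlap.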

Additional observations from a re-analysis of the deposited data

How the results depend on the processing

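The count of members with a promoter summit in the thresholded list was 3. It was 1 to 2 when either replicate was left out and 0 when a summit went only to the protein-coding gene with the nearest 5' end, since all 3 summits lie nearer to the neighbour. Under the other alternatives it was 2 or 3. The count from 1000 bp upstream to the 3' end was 4. It was 1 to 2 when either replicate was left out and 2 with a global IDR of at most 0.001, which kept cct-1 and cct-8, and 3 or 4 otherwise. For these counts, shares of all genes were computed only for the main settings, the nearest 5' end and the replicate lists in the longer window. The cct-8 region was the one kept by every list tried. The 47 ranked regions became 44 to 53 with other windows or the other list, and 42 when regions sharing both replicate signals were counted once, an alternative chosen after seeing the data. The members' median percentile was 77.0 over 7 genes, and 67.3 to 93.0 when a replicate was left out. These medians are over different genes: 6 members had a promoter region in the ranked list of replicate 1 and 5 in that of replicate 2, and cct-4 and cct-6 were in neither. Over the 5 members in every list, a restriction also chosen after seeing the data, the median was 95.0, and 89.5 without replicate 2 and 93.0 without replicate 1. This restriction drops cct-4 and cct-6, the lowest of the 7 at percentiles 0.944 and 7.09. The higher median follows from that and does not show that the members' level is stable. Of 24 values for single genes under alternatives, 5 were labelled as moved, all of them when a replicate was left out. Such a shift need not exceed the distance between the replicates. The cct-5 percentile went from 53.3 to 88.2 without replicate 1, and was 27.3 without replicate 2. Of these, only the value without replicate 1 was labelled as moved. The cct-8 percentile was labelled as moved when it went from 99.93 to 99.81 without replicate 2. The label does not follow the size of the change, and values without it were not shown to be stable. It describes how the replicate lists differ and is not a test. The cause was not tested.

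No paired analysis was possible because there is only 1 group. Leaving out 1 of 2 replicates leaves a single list with its own IDR threshold, so those counts have no replicate check. Depth is unknown, and the absence of cct-2, cct-3, cct-4 and cct-6 from the thresholded list means only that no region there passed it.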
